A study of Mus musculus with 2 samples.

Results

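The genes described here are the secreted and membrane-bound cytokine and chemokine ligands on the array: the chemokines of the Ccl, Cxcl and Cx3cl groups, the colony-stimulating factors, the ligands of the tumour necrosis factor (TNF) superfamily, leukemia inhibitory factor (LIF) and the interleukins. They were chosen by gene name in the scanner files, and a gene counted as detected where its brightest probe was well above background on at least 1 array. Of 34638 genes named on the array, 83 were such ligands, carried by 100 probes, and 46 of them (55.4%) had a detected probe. Brightness therefore decided which ligands have a value, and the counts of detected ligands are a description.

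Both groups were grown from 1 line of mouse embryonic stem (ES) cells, E14Tg2A of strain 129/Ola, maintained as ES cells with 10% fetal calf serum and 1000 U/mL LIF. EpiSC, cells with the features of epiblast stem cells, were derived directly from ES cells in a serum-free N2/B27 medium with 20 ng/mL Activin A and 12 ng/mL FGF2. ELA-EpiSC received the same 2 factors after a detour through epiblast-like aggregates (ELA), clusters in suspension that arise once ES cells lose serum and LIF. Each group was 1 array of RNA pooled from 3 sets of experiments, so culture variation was averaged inside the pool, no replicate was measured and no p-value can be given. The labels name no gene deletion and no transgene. The sample titles define the groups. The source fields disagree with them: both name undifferentiated cells, and that of EpiSC names an Argonaute immunoprecipitate although the molecule field is total RNA. Were that field right, derivation and RNA fraction could not be told apart.

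Cytokines and chemokines bind receptors on the cell surface and change the behaviour of the receiving cell. Most are best known from leukocytes, where colony-stimulating factors support macrophages and granulocytes and chemokines guide migration. Many of their genes are switched on by the NF-kB and interferon pathways, while LIF and its relatives signal through the shared receptor subunit gp130 to STAT3, a pathway that maintains naive mouse ES cells.

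Promoters are printed for 4 ligands whose genes carry a match to the kB consensus and whose RNA was higher by over 1 log2 unit in ELA-EpiSC. Each run holds the 250 bases before the transcription start, 5′ to 3′ on the strand of the gene, from RefSeq on GRCm38.p6. Capitals mark matches to the kB consensus, the sequence bound by NF-kB factors, and, for Cxcl10 alone, also a match to the core of the interferon-stimulated response element (ISRE). The windows are chr3:107760470-107760719 on the minus strand for Csf1, chr17:35194257-35194506 on the plus strand for Ltb, chr5:92348890-92349139 on the minus strand for Cxcl10 and chr5:90890995-90891244 on the plus strand for Cxcl1.
Csf1: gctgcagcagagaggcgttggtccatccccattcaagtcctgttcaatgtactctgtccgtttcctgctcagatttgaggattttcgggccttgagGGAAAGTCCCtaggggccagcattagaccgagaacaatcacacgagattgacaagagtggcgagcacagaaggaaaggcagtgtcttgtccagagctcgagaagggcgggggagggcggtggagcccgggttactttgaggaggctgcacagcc
Ltb: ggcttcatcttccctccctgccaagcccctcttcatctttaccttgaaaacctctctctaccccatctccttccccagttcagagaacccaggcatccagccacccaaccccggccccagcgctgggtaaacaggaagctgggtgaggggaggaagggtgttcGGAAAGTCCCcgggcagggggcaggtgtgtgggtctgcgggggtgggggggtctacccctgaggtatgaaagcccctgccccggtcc
Cxcl10: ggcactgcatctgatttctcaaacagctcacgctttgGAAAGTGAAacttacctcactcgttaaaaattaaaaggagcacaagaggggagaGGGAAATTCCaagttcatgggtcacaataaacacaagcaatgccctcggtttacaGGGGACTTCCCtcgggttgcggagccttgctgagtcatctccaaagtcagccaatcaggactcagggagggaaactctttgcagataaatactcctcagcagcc
Cxcl1: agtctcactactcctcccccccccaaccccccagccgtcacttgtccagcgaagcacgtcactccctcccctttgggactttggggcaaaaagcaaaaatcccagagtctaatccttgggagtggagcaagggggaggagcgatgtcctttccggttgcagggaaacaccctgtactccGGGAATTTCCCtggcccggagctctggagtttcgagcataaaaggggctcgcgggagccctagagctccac

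Of the 62976 spots printed on an array, 59305 belonged to 55681 mouse probes, and 0 of these were saturated. Spots had a median intensity of 71.7 in EpiSC against 79.1 in ELA-EpiSC, over local backgrounds of 26 and 25. Levels are given as log2 of the background-corrected, quantile normalized intensity, and differences as log2 ELA-EpiSC minus EpiSC, so that 1 is a doubling in ELA-EpiSC. A difference was called past 1 where its size was at least 1 and the mean level of both arrays at least 7.5. The only error that can be measured is that between spots: over 312 probes printed 10 times and detected on both arrays, the SD of the difference between spots was 0.10. It covers neither labelling nor culture. In bulk RNA, a change in the number of producing cells and a change in RNA per cell cannot be told apart. The 8 detected spike-in RNAs were lower by 0.54 on the ELA-EpiSC array after normalization. The 10 pluripotency and epiblast genes examined, Pou5f1, Sox2, Nanog and Fgf5 among them, were all detected on both arrays, with medians of 14.46 and 14.86. Of the 10, 2 were past 1 towards ELA-EpiSC, Pou3f1 (1.46) and Zic2 (1.68), beside 4.54% of all genes. Towards EpiSC 0 were past 1, with Dnmt3b lowest at -0.84.

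Ligands were detected less widely than genes at large on both arrays. The brightest probe was well above background for 45 ligands (54.2%) on the EpiSC array, where 72.3% of all genes were detected. The ELA-EpiSC array had 41 detected ligands (49.4%), against 71.4% of all genes. Of the 46 ligands, 40 were detected on both arrays, 5 on the EpiSC array only and 1 on the ELA-EpiSC array only, beside 4.27% and 3.16% of all detected genes. By the other background flag of the scanner software, which asks only for a significant signal, 57 ligands were detected on each array. The share of all genes by that flag is not given here, so this count allows no comparison with genes at large. The 5 ligands of the EpiSC array alone were higher in ELA-EpiSC under spike-in scaling, by 0.27 to 0.47. Every other alternative way of computing levels put them lower there. Their lowest differences ran from -0.50 for Cxcl17 to -2.47 for Cxcl5. Detection on 1 array thus gives them no settled direction or size. Detected ligands were also mostly dim: 17 of 46 (37.0%) reached a mean level of 7.5, compared with 64.4% of all detected genes.

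With the main processing, where ligands differed by more than a doubling, the difference was towards ELA-EpiSC. Of the 17 ligands at or above the minimum level, 6 were past 1 with the higher level in ELA-EpiSC (35.3%), beside 4.54% of the 16649 genes tested. In the other direction 0 ligands were past 1, beside 4.46% of genes. These 6 were Csf1, Ltb, Cxcl10, Cxcl16, Il33 and Il11, a set spread over 5 ligand families. Below the minimum level, Cxcl1, Tnfsf15 and Lta also differed by over 1, all 3 with the higher level in ELA-EpiSC, which made 9 of 46 at any level beside 3.39% of all detected genes, and 0 beside 3.34% in the other direction. The remaining 37 ligands stayed under 1, and 17 of the 46 differed by less than the SD between spots. The median difference of the 46 ligands was 0.10, and that of all detected genes -0.01, with 32 ligands (69.6%) above 0 compared with 49.2% of all detected genes. Under scaling to the 75th percentile the ligands' median was -0.05. The differences of at least 1 thus lay in 9 genes of a set whose median was near 0.

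**Figure D1:**
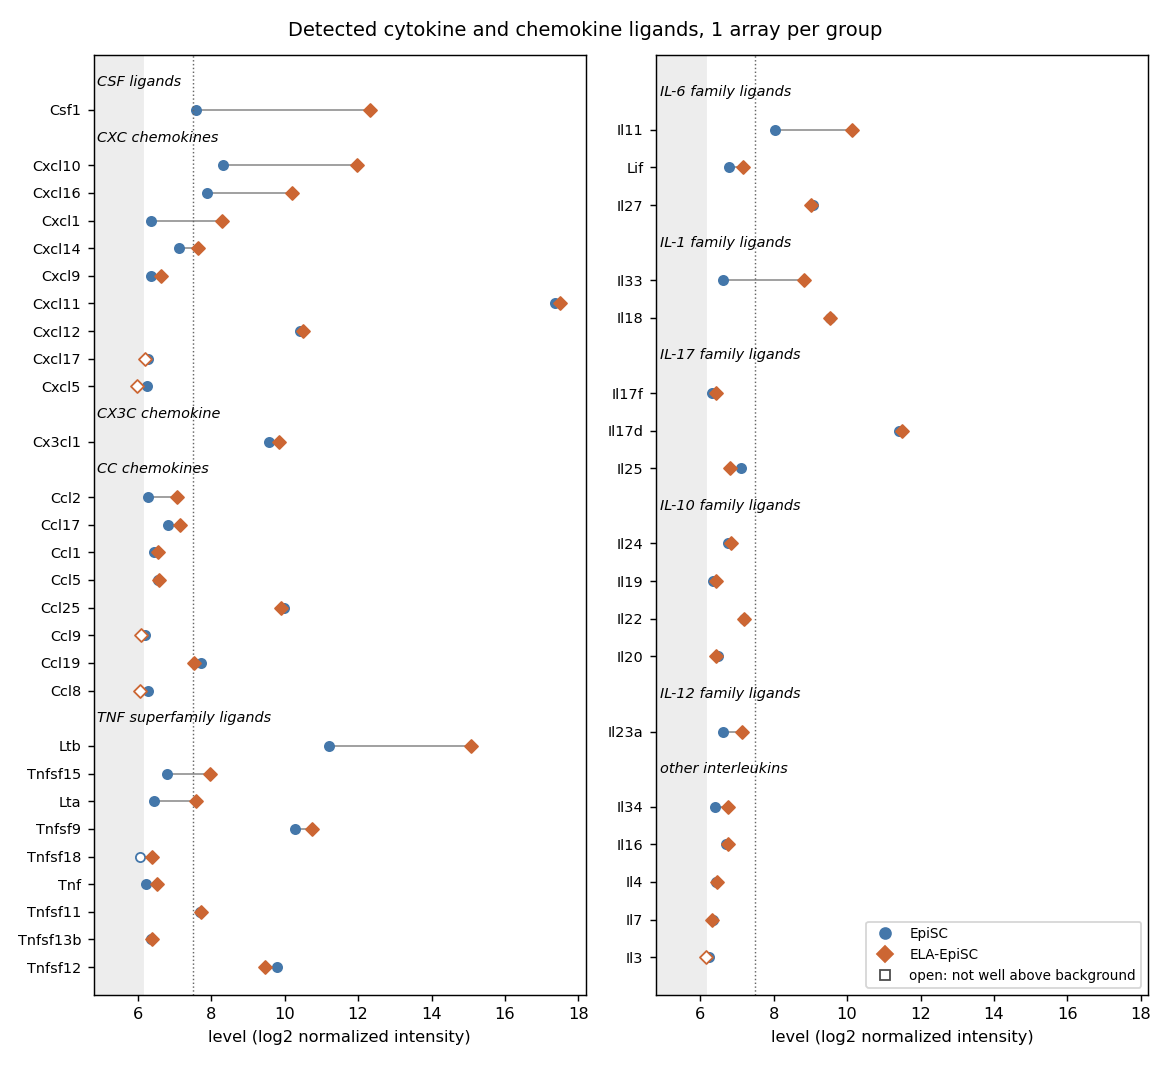
Level of each detected ligand (log2 normalized intensity, horizontal axis) on the EpiSC array (circles) and the ELA-EpiSC array (diamonds), by family and ordered by difference, with 1 array per group. Open symbols were not well above background, the grey band ends at the 99th percentile of negative control spots on the ELA-EpiSC array (6.15) and the dotted line marks 7.5; Csf1, Ltb and Cxcl10 span the widest gaps, and most other ligands lie near the band with overlapping symbols.

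**Figure D2:**
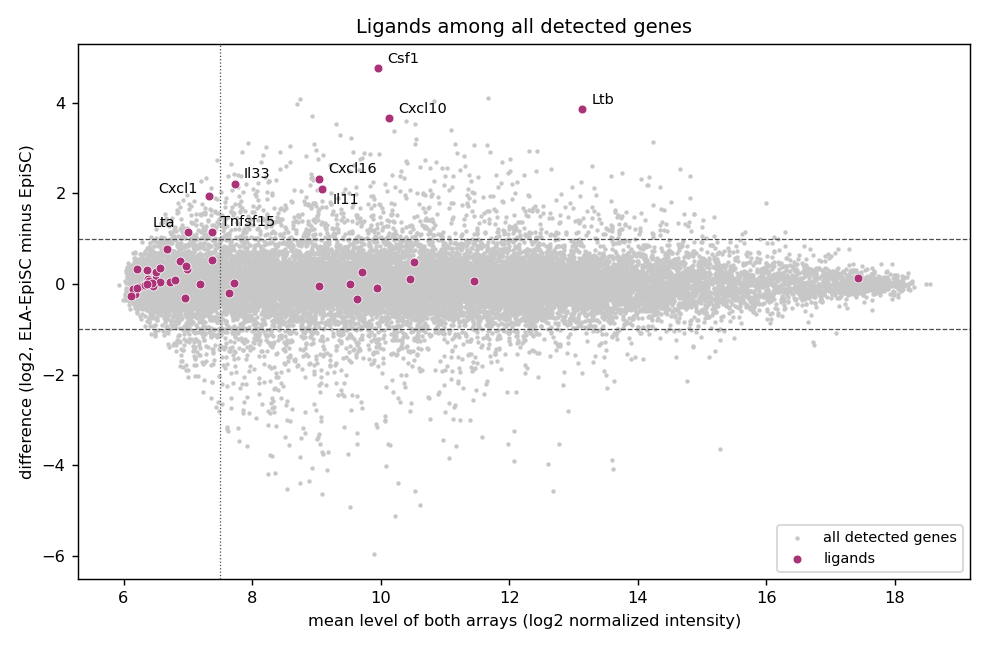
Difference (log2, ELA-EpiSC minus EpiSC, vertical axis) against the mean level of both arrays (log2 normalized intensity) for the 25851 detected genes in grey and the 46 detected ligands in purple. Dashed lines mark -1 and 1 and the dotted line the minimum level of 7.5; 9 ligands, named, lie above the upper line and 0 below the lower.

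Csf1 encodes macrophage colony-stimulating factor, the growth factor of macrophages. Its level was 7.58 in EpiSC against 12.33 in ELA-EpiSC, a difference of 4.76, or 27.0-fold. Among the 16649 genes at or above the minimum level this was rank 1 of the differences towards ELA-EpiSC. The brightest probe (chr3:107544333-107544392, mm9) was printed 10 times. Its spots ran from 7.36 to 7.77 in EpiSC and from 12.04 to 12.69 in ELA-EpiSC, so every ELA-EpiSC spot was above every EpiSC spot. The SD of the difference between spots was 0.15. The other 2 probes of the gene lay on another stretch and were well above background in ELA-EpiSC only. Their readings were 10.5-fold and 12.0-fold higher there. Over the 12 alternative ways of computing levels the difference of Csf1 lay between 3.91, for the mean of its probes, and 5.29. Of the other colony-stimulating factors, Csf2 and Csf3, which act on granulocytes and macrophages, neither was detected on either array.

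**Figure D3:**
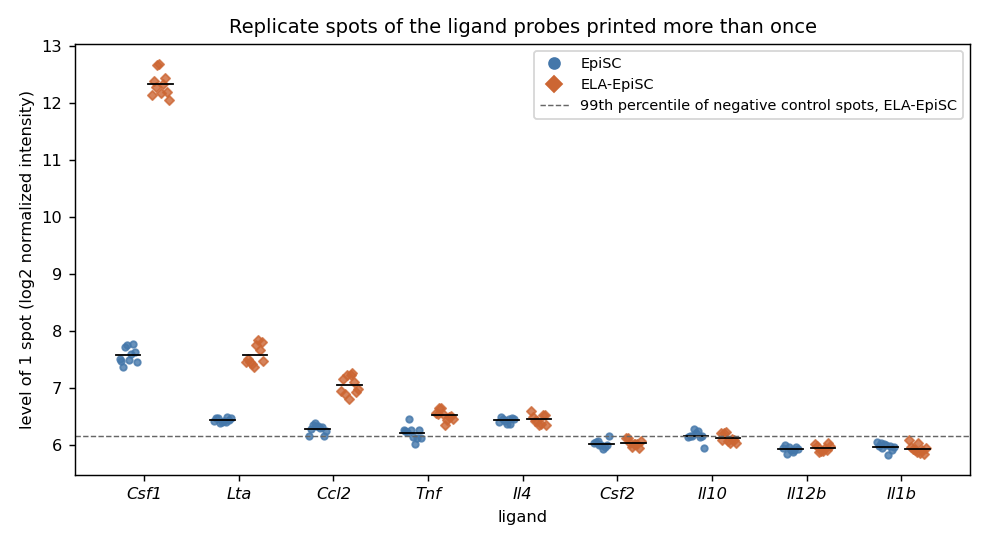
Level of single spots (log2 normalized intensity, vertical axis) for the 9 ligand probes printed 10 times, with EpiSC as circles, ELA-EpiSC as diamonds and the mean as a black bar; points left after removal of outlier spots are drawn. Csf1, Lta and Ccl2 have spots that do not overlap between the arrays, and Tnf overlaps slightly. Il10 lies around the 99th percentile of negative control spots (dashed line). Il12b and Il1b lie below it, as does nearly all of Csf2, whose highest spot is at 6.16.

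The TNF superfamily ligands are mostly membrane-bound trimers that act in lymphoid tissue and cell death. Of 13 on the array, 9 were detected and 4 reached the minimum level. Ltb encodes lymphotoxin beta, which anchors lymphotoxin alpha at the membrane and signals through Ltbr to the alternative NF-kB pathway. Its level was 11.21 in EpiSC against 15.06 in ELA-EpiSC, a difference of 3.86 (14.5-fold), with 1 probe (chr17:35333097-35333156, mm9) and a range of 3.72 to 4.40 over the alternatives. This was rank 6 of the differences, and Ltb was the only member of its family past 1.

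Lta, its partner in the lymphotoxin heterotrimer, was at 6.44 in EpiSC and 7.58 in ELA-EpiSC. The 10 spots of Lta ran from 6.39 to 6.49 and from 7.37 to 7.85, without overlap, and the difference of 1.14 fell to 0.94 under scaling to the 75th percentile. Tnfsf15, a ligand that costimulates T cells, was at 6.80 and 7.95, a difference of 1.15. Tnf, the inflammatory cytokine that names the family, was at 6.21 and 6.52, a difference of 0.31. It was near background in EpiSC, where 5 of its 10 spots were well above background, against all 10 in ELA-EpiSC. Tnfsf9, the ligand of the costimulatory receptor 4-1BB, was detected clearly on both arrays at 10.27 and 10.75, a difference of 0.48.

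The other TNF superfamily ligands differed little. Tnfsf12, which encodes TWEAK, the ligand of Tnfrsf12a, was at 9.80 and 9.47, a difference of -0.33, and its other probe gave 0.07. Tnfsf11, the osteoclast factor RANKL, was at 7.71 and 7.73. Tnfsf13b, the B cell survival factor BAFF, differed by 0.01. Tnfsf18, the GITR ligand, was the one ligand detected in ELA-EpiSC only, at 6.38 against 6.05, a difference of 0.32. Over the alternatives it ran from -0.01, under scaling to the 75th percentile after normexp, to 2.31, with the processed signal of the scanner software. Tnfsf4, Tnfsf8, Tnfsf10 and Tnfsf14 were not detected.

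Of the CXC chemokines, 3 differed by over 1 and the others by 0.53 or less. Of 13 on the array, 9 were detected and 4 reached the minimum level. Cxcl10, an interferon-inducible chemokine that attracts T cells through Cxcr3, was at 8.31 in EpiSC against 11.96 in ELA-EpiSC, a difference of 3.65 (12.6-fold, rank 8). A second Cxcl10 probe was dim, at 6.13 and 7.20, and well above background in ELA-EpiSC only. Its reading was 2.10-fold higher in ELA-EpiSC, and the alternatives for the gene ranged from 2.36, for the mean of both probes, to 4.19. Cxcl16, a transmembrane chemokine and ligand of Cxcr6, was at 7.88 and 10.20, a difference of 2.32 (4.99-fold; 2.28 to 2.86 over the alternatives). Cxcl1, a neutrophil attractant and a known NF-kB target, was at 6.36 and 8.29, a difference of 1.93 at a mean level below 7.5.

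Cxcl9 and Cxcl11 share the receptor Cxcr3 with Cxcl10, are likewise interferon-inducible and lie beside it on the chromosome, yet their levels were close between the arrays. Cxcl9 was at 6.37 and 6.63, a difference of 0.26. Cxcl11 was at 17.36 and 17.49 by its brightest probe, a difference of 0.13, and its other probe, at 13.42 and 13.19, gave -0.23. The brightest Cxcl11 probe was unusual in its letters: it shared a 16-base word with probes of 19 other genes and with promoters of 54 other genes, whereas its other probe shared one with 2 and 9. It was the 1 probe of 100 ligand probes that shared such a word with promoters of over 10 other genes. The 30-base stretches of both probes that hold the most widely shared word are printed below, with that word in capitals (bases 7 to 36 and 21 to 50 of each 60-base probe). The letters of both resemble B1, a short interspersed repeat with many copies in the mouse genome. Its part in the Cxcl11 signal of either probe was not tested.
Cxcl11, brightest probe: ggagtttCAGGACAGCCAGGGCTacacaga
Cxcl11, other probe: cttgaaaGGCAGAGGCAGGAGGAtctcttg

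The remaining CXC chemokines differed by less than 1 or were not detected. Cxcl12, the ligand of Cxcr4 that guides migrating progenitor cells, was at 10.41 and 10.51, with differences of -0.10 and 0.10 from its 2 probes. Cxcl14 was at 7.12 and 7.65, a difference of 0.53 that stayed positive over the alternatives (0.39 to 1.07). Cxcl5 and Cxcl17 were detected in EpiSC only, at 6.24 and 6.27 there against 5.98 and 6.20 in ELA-EpiSC, and the latter gap was within the SD between spots. Cxcl2, Cxcl3, Cxcl13 and Cxcl15 were not detected. Cx3cl1, the membrane-bound chemokine fractalkine, was at 9.58 and 9.84, a difference of 0.26.

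Among the CC chemokines, the larger chemokine group, 0 were past 1. Of 19 on the array, 8 were detected, and 2 of these reached the minimum level. Ccl2, which attracts monocytes and is a known NF-kB target, was at 6.29 and 7.05, a difference of 0.77. Its 10 spots ran from 6.15 to 6.38 and from 6.81 to 7.26, so that they did not overlap although 8 of 10 in EpiSC were well above background, and the alternatives ranged from 0.52 to 2.16. Ccl17 was at 6.82 and 7.16. Ccl25, a thymic and intestinal chemokine, was at 9.98 and 9.90, with differences from -0.43 to 0.18 over its 3 detected probes. Ccl19, a ligand of Ccr7 in lymph nodes, was at 7.73 and 7.53, and its copies in the mouse genome are alike enough that the probe may not tell them apart. Ccl1 and Ccl5 differed by 0.10 and 0.04. Ccl8 and Ccl9 were detected in EpiSC only, at 6.29 and 6.20 there against 6.07 and 6.09 in ELA-EpiSC. Not detected were Ccl3, Ccl4, Ccl6, Ccl7, Ccl11, Ccl12, Ccl20, Ccl22, Ccl24, Ccl26 and Ccl28.

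Of the gp130 and related cytokines, Il11 stood apart from its relatives. Il11 signals through Il11ra1 and gp130 and is known from bone marrow and the uterine decidua. It was at 8.04 in EpiSC against 10.13 in ELA-EpiSC, a difference of 2.09 (4.26-fold; 2.06 to 2.63 over the alternatives). Lif, the factor that sustains naive ES cells and that was withdrawn from the cultures, was at 6.78 and 7.17, a difference of 0.39. Il27 was at 9.06 and 9.02. Il6 and Il31 were not detected.

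In the interleukin 1 family, Il33, a nuclear alarmin released from damaged cells, was at 6.62 and 8.84, a difference of 2.22 (4.65-fold; 2.08 to 3.42). Il18, which is activated by inflammasomes, was at 9.53 and 9.52. Il1a and Il1b, the founding members of the family, were not detected, and 0 of the 10 Il1b spots were well above background on either array. Il33 was near the minimum level, with a mean of 7.73. Its mean lay below that minimum under 4 of the alternative ways of computing levels, where 5 ligands were past 1, while its own difference stayed above 2.

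The interleukins of other families were dim or level, with 0 past 1. Il17d, of the interleukin 17 family, was at 11.41 and 11.48 and had 2 probes that differed by 0.07 and 0.17. Il25 was at 7.12 and 6.80, a difference of -0.32. Il23a, a subunit of interleukin 23, was at 6.62 and 7.14, a difference of 0.52, and Il12a and Il12b, subunits of interleukin 12, were not detected. Il34, the second ligand of the Csf1 receptor, was at 6.39 and 6.75, a difference of 0.36. Il4, Il7, Il16, Il17f, Il19, Il20, Il22 and Il24 were detected on both arrays with differences between -0.05 and 0.12. Il3 was detected in EpiSC only, at 6.25 against 6.16, a gap within the SD between spots. Il2, Il5, Il9, Il10, Il13, Il15, Il17a, Il17b, Il17c and Il21 were not detected.

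Around the detection limit, values inside and outside it met. The dimmest detected ligand was Cxcl5, at 6.24 in EpiSC and 5.98 in ELA-EpiSC, and the brightest that was not detected was Tnfsf14, at 6.27 and 6.24. For Il10, 3 of 10 spots were well above background on each array, under the required share of 0.5. Levels of the 37 ligands without a detected probe ran from 5.82 to 6.27 in EpiSC and from 5.79 to 6.24 in ELA-EpiSC, and the negative control spots had medians of 5.90 and 5.91. Around the minimum level of 7.5, Ccl19, Tnfsf11 and Il33 lay just inside with means of 7.63, 7.72 and 7.73. Cxcl14, Tnfsf15 and Cxcl1 lay just outside with means of 7.38, 7.38 and 7.32.

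**Figure D4:**
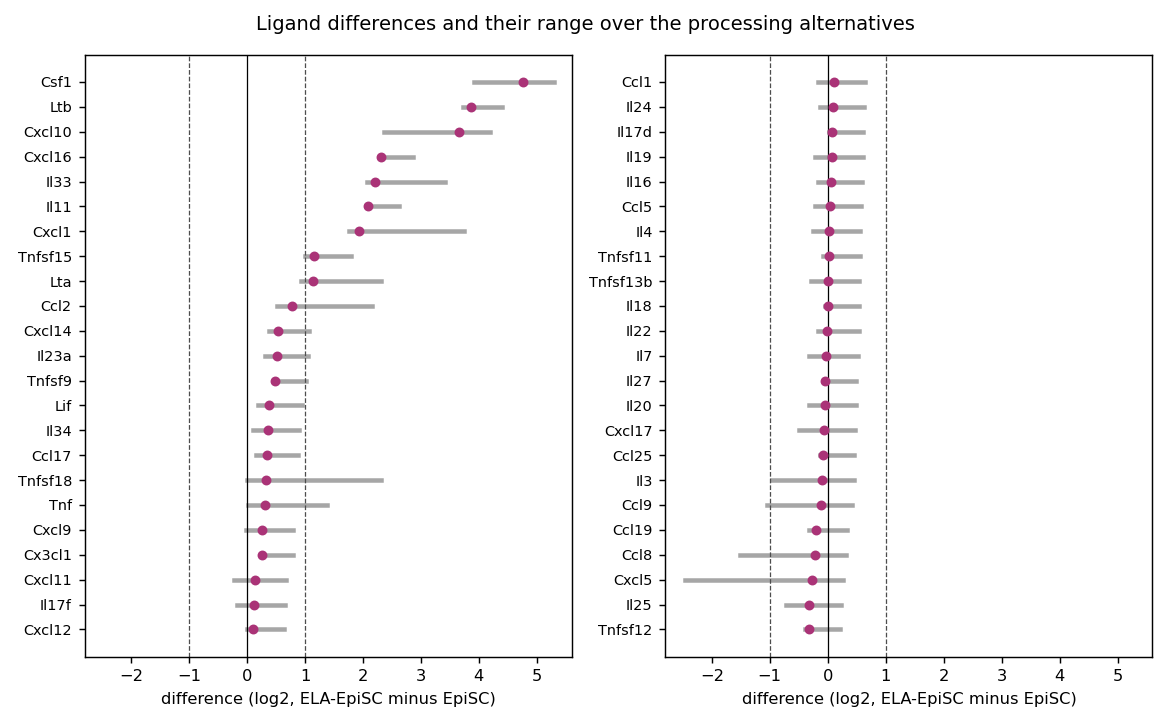
Difference of each detected ligand (log2, ELA-EpiSC minus EpiSC, horizontal axis) as computed here (points) and its range over the 12 alternative ways of computing levels (grey bars), with dashed lines at -1 and 1. For 8 of the 9 ligands with a difference of at least 1 the bar stays at or above 1, Lta being the exception, whereas 26 of the 37 other ligands have bars that cross 0.

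Chromosomal neighbours were read for the 4 ligands whose promoters are printed above. Within 60 kb of the Ltb probe, 10 genes were detected and 2 of them differed by at least 1: Lta (1.14) and Aif1, a calcium-binding protein of macrophages, which was at 6.34 and 8.99 (2.64). Tnf lies between Ltb and Lta and differed by 0.31. Lst1, a leukocyte transcript, differed by 0.20 by its brightest probe and by 1.46 by another. Within 60 kb of the Cxcl10 probe, 0 of 5 detected genes differed by at least 1, Cxcl9 and Cxcl11 among them. Around Cxcl1 this was 0 of 2, and around Csf1 no gene was detected within that distance. With 3.39% of all detected genes higher by at least 1 in ELA-EpiSC and 3.34% in EpiSC, the counts of 0 are near the background.

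The receptors were described in the same way, from a list of 97 genes on the array, of which 72 were detected and 39 reached the minimum level. Past 1 were 8 with the higher level in ELA-EpiSC (20.5%) and 3 with the higher level in EpiSC (7.69%), beside 4.54% and 4.46% of all genes. Under spike-in scaling these were 15 and 1, and under median scaling 10 and 2. The median difference over the 72 was 0.09. The receptors of the ligands past 1 did not differ by as much as their ligands. Csf1r, the receptor of Csf1, was at 9.55 and 9.58, and its second probe gave -0.36. Ltbr, the receptor of lymphotoxin beta, was at 12.05 and 12.12. Il11ra1 was at 10.20 and 9.70, a difference of -0.49. Cxcr6, the receptor of Cxcl16, was dim at 6.65 and 6.62. Cxcr3, the receptor of Cxcl10, and Il1rl1, the receptor of Il33, were not detected.

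The IL-6 receptor family held the receptor with the largest difference. Il6ra, the interleukin 6 receptor, was at 7.52 in EpiSC against 10.48 in ELA-EpiSC, a difference of 2.96, while its ligand Il6 was not detected. Il6st, which encodes gp130, the signalling subunit shared by the receptors of Il6, Il11 and Lif, was at 9.26 and 10.44, a difference of 1.18. Cntfr, the receptor of ciliary neurotrophic factor, was at 7.51 and 8.95, a difference of 1.43. Of the 6 genes of this family 5 reached the minimum level and 3 were past 1, beside 4.54% of all genes. The median difference of the family was 0.92, and Lifr, at 10.31 and 10.96, was not past 1.

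Of the 24 detected TNF superfamily receptors, 17 reached the minimum level. Past 1 were 3 with the higher level in ELA-EpiSC and 1 with the higher level in EpiSC, beside 4.54% and 4.46% of all genes. Tnfrsf19, a receptor known from progenitor cells, was at 9.75 and 12.30, a difference of 2.55, though its other probe gave 0.54. Tnfrsf12a, the receptor of Tnfsf12, was at 13.61 and 15.42, a difference of 1.81. Ngfr, the low-affinity neurotrophin receptor, differed by 1.17. Tnfrsf25, the death receptor that binds Tnfsf15, was at 9.99 and 8.96, a difference of -1.02. Among interleukin receptors, Il17rd, an inhibitor of FGF signalling, was at 13.86 and 15.03 (1.18), and Il17rc was at 10.38 and 11.49 (1.11), with 0.49 from its other probe. Over the alternatives their differences went down to 0.95 and 0.80.

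Among 13 detected chemokine receptors, 2 of the CXC and CX3C list and 1 of the CC and atypical list reached the minimum level. Past 1 were 2, both with the higher level in EpiSC, beside 4.46% of all genes. Cxcr4, the receptor of Cxcl12, was at 10.95 in EpiSC against 9.71 in ELA-EpiSC, a difference of -1.24. Ackr3, which binds and clears Cxcl12, was at 11.32 and 9.32, the larger gap of the pair, with -2.22 to -1.47 over the alternatives. Cxcr4 came to -0.70 under spike-in scaling, and Tnfrsf25 to -0.49. The other CXC receptors detected, Cxcr1 and Cxcr6, differed by -0.22 and -0.02 and turned positive under spike-in scaling. Thus the 2 receptors of Cxcl12 were higher in EpiSC while Cxcl12 itself was level between the arrays. Both were single probes.

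Ligands that the name pattern does not cover were counted apart. Of 23 on the array 13 were detected, 10 reached the minimum level and 1 was past 1, beside 4.54% of all genes. This was Spp1, the cytokine and matrix protein osteopontin, at 9.09 and 10.87, a difference of 1.78. The median difference of the 13 was -0.16, with 5 above 0, and Ccl27a was lowest at -0.90. Of 4 soluble antagonists 2 were detected, and 0 were past 1.

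Genes known to respond to NF-kB and to interferon were read beside the ligands. These lists were put together with earlier results of these data known. Of 15 detected NF-kB response genes, 11 reached the minimum level, 6 were past 1, all 6 with the higher level in ELA-EpiSC (beside 4.54% of all genes), and the median difference was 0.86. Bcl3, a nuclear IkB protein, was at 8.26 and 10.75 (2.49). Relb and Nfkb2, the subunits of the alternative pathway, differed by 2.02 and 1.70, though the 3 Relb probes ran from -0.01 to 2.02. Tnfaip3, the feedback inhibitor A20, differed by 1.68, and Nfkbia, the classical IkB gene, was at 13.02 and 13.12.

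Of 22 detected interferon response genes, 16 reached the minimum level, and the median difference was 0.91. Past 1 were 9, all with the higher level in ELA-EpiSC, beside 4.54% of all genes. The remaining 13 were not past 1, with Usp18 lowest at -0.83. The guanylate-binding protein genes Gbp2 and Gbp3 differed by 4.09 and 3.05. Oasl2, an antiviral gene, was at 7.71 and 11.01 (3.30), and Psmb8, a subunit of the immunoproteasome, was at 8.98 and 12.08. Isg15, a ubiquitin-like antiviral protein, differed by 2.92. The ligands themselves had a median of 0.10, so that those past 1 were a minority of their set.

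**Figure D5:**
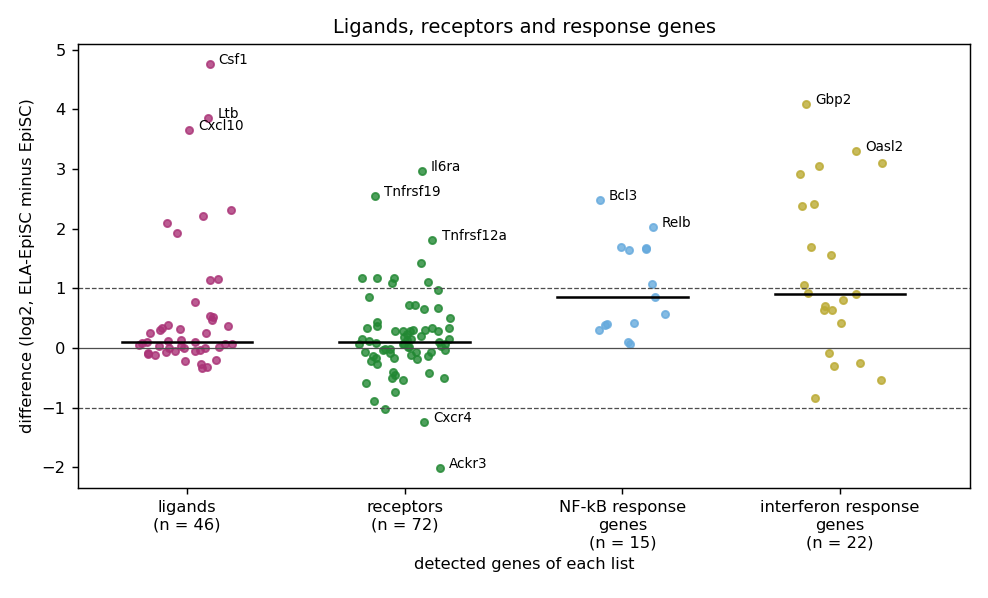
Difference (log2, ELA-EpiSC minus EpiSC, vertical axis) of each detected gene among the 46 ligands, 72 receptors, 15 NF-kB response genes and 22 interferon response genes; horizontal position within a list is arbitrary, the black bar is the median and dashed lines mark -1 and 1. The medians are 0.10, 0.09, 0.86 and 0.91, and receptors are the list of these with points past -1.

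In the promoters printed above, the kB match lay at -154 to -145 from the start of Csf1, at -87 to -78 for Ltb and at -71 to -61 for Cxcl1. Cxcl10 held matches at -159 to -150 and at -104 to -94, the ISRE core at -213 to -205, and at -74 to -68 an AP-1 match. Matches were sought on both strands for the kB consensus, the ISRE core (GAAANNGAA), the AP-1 site (TGANTCA) and the TATA box (TATAAA), which may overlap. A RefSeq promoter was found for 32 of the 46 detected ligands. A ligand counted as matched where any promoter of its gene matched. The share beside each motif is of single promoters, 32851 for 27025 genes, and is not a share of genes. The kB consensus was matched in 9 of the 32 ligands, beside 7.25% of promoters of the same length. Of the 8 ligands with a promoter and a difference of at least 1, 4 held it, and of the 24 others 5 did: Ccl1, Ccl9, Il16, Il19 and Lif.

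The ISRE core was matched in 8 of 32 (7.13% of all promoters), of which 1, Cxcl10, had a difference of at least 1. The AP-1 site was matched in 6 of 32 (6.75%) and the TATA box in 13 of 32 (12.4%). A match says only that these letters stand in the window.

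Ligands and their response genes can also come from other cells, and markers of such cells were read beside them. Of 15 macrophage and leukocyte markers on the array 12 were detected and 4 reached the minimum level. Past 1 was 1, Aif1, higher in ELA-EpiSC, beside 4.54% of all genes. Over the 12 the median difference was 0.08, with 7 above 0, and the lowest were Fcgr3 at -0.65 and Laptm5 at -0.54. The markers' summed level was 13.22 in EpiSC and 13.59 in ELA-EpiSC (log2 of summed intensity). Itgam, the brightest of them, was at 12.72 and 13.09, with probes from -0.385 to 0.37. Of the defining markers, Ptprc (CD45) was at 6.48 and 6.60, and Spi1, Lyz1 and Lyz2 were not detected. Of 10 fibroblast markers 8 were detected and 5 reached the minimum level, with a median difference of 0.34 and a summed level of 11.96 and 12.71. Past 1 were 2, Col1a1 at 7.07 and 10.79 (3.72) and Pdgfra at 7.98 and 9.75 (1.77), beside 4.54% of all genes. Col3a1 differed by 1.88 below the minimum level. Col1a2 was at 10.89 and 10.97, Thy1 differed by 0.05 and Dcn by -0.33, and Lum and Fap were not detected.

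Of 8 endothelial markers 7 were detected and 2 reached the minimum level, with a median difference of -0.01 over those detected. Of these Vwf alone was past 1, at 10.98 and 7.22 (-3.75), beside 4.46% of all genes higher in EpiSC. Under 1, Esam differed by 0.81 and Cldn5 by -0.82. Kdr was at 12.72 and 12.29, with probes from -0.43 to 1.49. Of 10 markers of primitive and visceral endoderm, 8 reached the minimum level and 3 were past 1 with the higher level in EpiSC, beside 4.46% of all genes. Amn differed by -2.75 and Gata4 by -2.39, and Ttr was at 9.53 in EpiSC and not well above background in ELA-EpiSC. Over the 10 the median difference was -0.75. Above 0 were 3 of them, Cubn (0.11), Dab2 (0.20) and Afp (0.21). The part of these cells in the ligand levels was not tested.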

How the data were processed

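The authors scanned both arrays and deposited spot intensity on a linear scale, with quality flags, per the file headers from Feature Extraction 10.7.3.1 (the submitters' processing notes name 9.1) on an array design with mm9 probe coordinates. The deposited table of log2 values, background-corrected and quantile normalized by the authors with limma, was used as an alternative; its background method and offset are not given in the sources used here. Per the labels, 50 ng of RNA was labelled, and both arrays lay on 1 slide in 1 scan.

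Mean spot intensity and median local background were corrected in limma 3.58.1 (R 4.3.3) by normexp (offset 50; the fit used every spot). After removal of control and outlier spots (158 in EpiSC, 117 in ELA-EpiSC), both arrays were quantile normalized, log2 was taken and spots were averaged per probe. This offset shrinks the differences of dim genes, while quantile normalization removes any shift common to all genes. Detection of a probe required the flag for well above background on a share of 0.5 or more of its spots, and a gene took its brightest detected probe. For a probe detected on 1 array, the fold compares its level with the dim array's own reading. Where that reading was under that array's lowest detected signal (5.89 for EpiSC, 6.11 for ELA-EpiSC), the latter was used. Undetected ligand probes read up to 6.27 in EpiSC, so such a fold is not a lower bound. The steps were tested on simulated data. Tables and figures were made in Python 3.11.15 with pandas 2.3.3 and matplotlib 3.10.9.

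The thresholds of 1 and 7.5 come from the methods of the study. Every detected ligand is named; of receptors, those past 1 and those of the ligands past 1; of other lists, the largest differences past 1. Some list genes under 1 and the neighbours within 60 kb were picked after their values were seen. These genes include Lifr, Nfkbia, Ptprc, Itgam, Fcgr3, Laptm5, Usp18, Esam, Cldn5, Kdr, Col1a2, Thy1, Dcn, Dnmt3b, Cubn, Dab2, Afp and Ccl27a. The members and all lists were chosen with earlier results of these data known. All 83 ligand names matched the RefSeq table, used for names and promoters. With 2 arrays, precision is limited by their number.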

Additional observations from a re-analysis of the deposited data

How the results depend on the processing

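With 1 array per group nothing here has a replicate check. No paired analysis was possible because single arrays leave nothing to pair. In the alternatives tried, 0 ligands were past 1 towards EpiSC. Below the minimum level some ligands did differ by over 1 in that direction. With the processed signal of the scanner software, Cxcl5, Ccl8 and Ccl9 came to -2.47, -1.52 and -1.06. With a normexp offset of 0, Cxcl5 came to -1.01. Scaling to the spike-in RNAs raised the median of all genes by 0.54; under it 10 ligands were past 1 towards ELA-EpiSC, 15 receptors were past 1 towards ELA-EpiSC and 1 towards EpiSC, beside 14.9% and 1.82% of all genes, and the ligands' median was 0.64. Median scaling raised that of all genes by 0.15. Scaling to the 75th percentile after normexp turned the ligands' median to -0.05. At a threshold of 1.5-fold, 13 receptors (33.3%) passed towards ELA-EpiSC and 5 (12.8%) towards EpiSC, beside 11.1% and 10.9% of all genes. At a log2 threshold of 2.5, 3 ligands (Csf1, Ltb and Cxcl10) and 2 receptors passed towards ELA-EpiSC, beside 0.40% of all genes. Towards EpiSC 0 receptors passed, beside 0.65% of all genes. Of the single ligands, 26 of the 37 under 1 changed sign under some alternative.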
